A study of Mus musculus with 8 samples.

Results

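The 10 genes of the Notch pathway described here were followed across the 3 tumor groups of a mouse colon series: the receptors Notch1, Notch2 and Notch3, the ligands Dll1, Dll4, Jag1 and Jag2, the receptor-modifying enzyme Lfng, and the target genes Hes1 and Hey1. They were taken by gene symbol from the probe sets annotated to a single gene. All 10 were found among 19938 measured genes, each with 1 probe set. Transcript levels came from Affymetrix arrays, 1 per tumor, and are log2 signals, so that a log2 difference of 1 is a doubling.

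The series compared tumors induced by the colon carcinogen azoxymethane (AOM) with serrated tumors, and held no normal colon. The K-rasG12D AOM group was made of 3 distal colon tumors with the genotype label K-rasG12Dint. The LSL AOM group was made of 2 distal colon tumors labelled LSL-K-rasG12D/+, an allele behind a lox-stop-lox cassette, which the sample titles call wt. The serrated group was made of 3 proximal colon tumors labelled K-rasG12Dint/Ink4a/Arf-/-, that is, the same K-ras label on a background without the Ink4a/Arf locus, with no AOM in their titles. Serrated histology, colon segment, Ink4a/Arf genotype and AOM therefore cannot be told apart in any comparison with the serrated group. Against LSL AOM tumors, and in part against the mean of the AOM groups, the K-ras label differed as well and cannot be told apart from these. The sources used here do not give strain, age, AOM dose or what drives recombination.

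Notch receptors are single-pass membrane proteins that are activated by Delta-like and Jagged ligands on a neighbouring cell. Binding leads to cleavage by an ADAM protease and then by gamma-secretase, and the freed intracellular domain joins RBPJ in the nucleus to switch on genes such as those of the Hes and Hey repressors. Fringe enzymes, of which Lfng is one, add sugars to the receptor and change how it responds to each ligand class. In the intestinal crypt Notch activity keeps progenitors from becoming secretory cells, in part through repression of Atoh1 by Hes1, while in the tissue around the glands Dll4 is best known from endothelium and Notch3 from smooth muscle and pericytes.

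The members fell into those that went down in the serrated tumors and those that did not move beyond their spread. Notch1, Jag2 and Lfng were lower in serrated tumors than in either AOM group, by 1.76- to 4.31-fold, and no serrated array overlapped an AOM array in any of these genes. They also stood lower in K-rasG12D AOM than in LSL AOM tumors on every array, although that step did not pass. Jag1 had a higher mean in serrated tumors and did not pass, although it did under some of the alternative settings given with its values. Notch2, Notch3, Dll1, Dll4, Hes1 and Hey1 did not pass in any comparison with all arrays weighted equally, whereas with array weights Dll4 and Hey1 passed in some.

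Counts over the members were the same in each comparison with the serrated group. Against the mean of the AOM group means, 3 of 10 were lower and 0 higher (limma, Benjamini-Hochberg adjusted p under 0.05 over all genes), where 5.76% of all genes were lower and 3.62% higher. Against K-rasG12D AOM tumors alone the counts were again 3 lower and 0 higher, with 3.99% and 2.46% of all genes. Against LSL AOM tumors alone they were 3 and 0, with 3.40% and 2.31%. The median log2 difference of the 10 members was -0.50, -0.47 and -0.63 in these comparisons, beside 0.04, 0.05 and 0.04 over all genes. These comparisons share the serrated arrays and are not independent of each other.

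**Figure D1:**
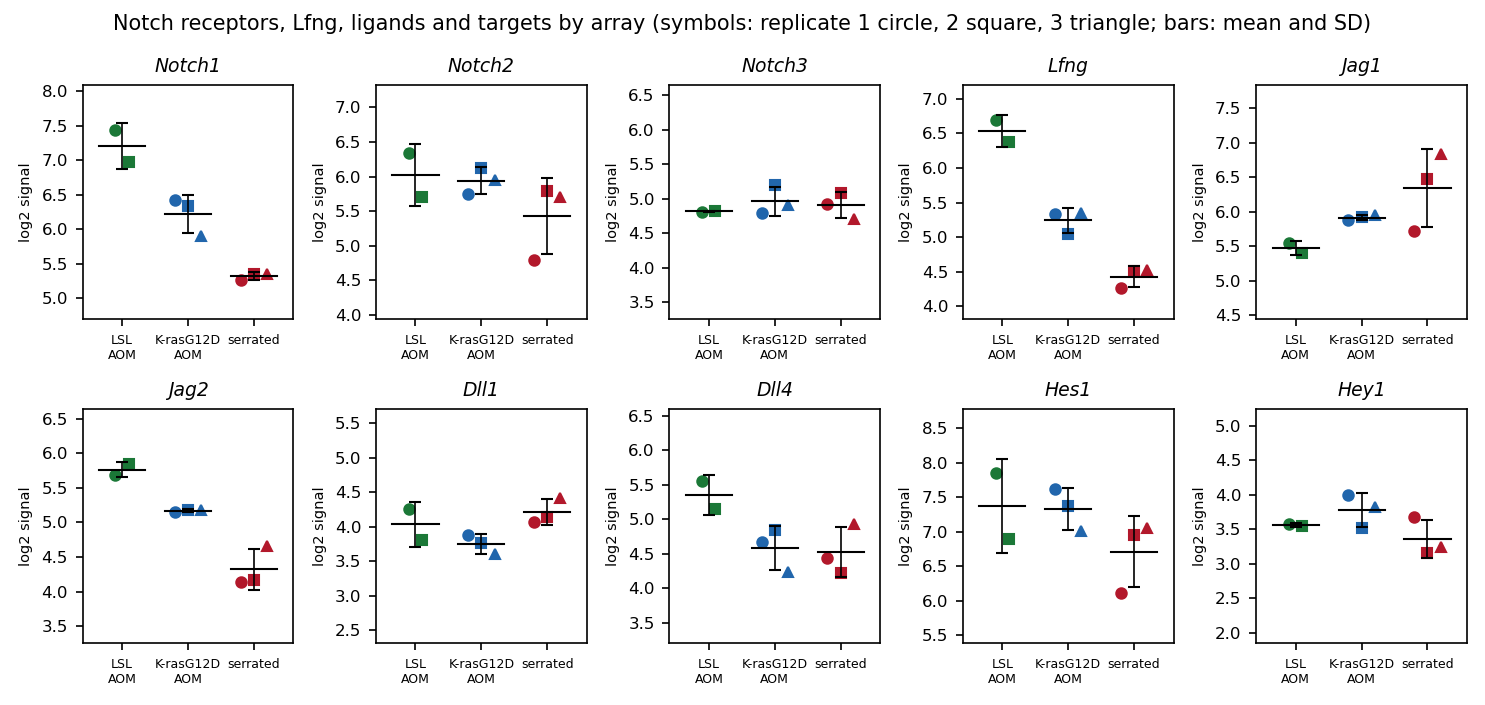
Log2 signal (y axis) of the 10 Notch genes in LSL AOM, K-rasG12D AOM and serrated tumors (x axis); each symbol is 1 array, the horizontal bar is the group mean and the whiskers are the SD. Notch1, Lfng and Jag2 step down from LSL AOM to K-rasG12D AOM to serrated tumors with no overlap, whereas Notch3 lies between 4.71 and 5.20 on all 8 arrays.

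Because Lfng and Notch1 had the largest differences, the 250 bases before their annotated starts are shown, from RefSeq windows on the GRCm38.p6 build that were available for 8 of the 10 members. Lower case letters are the window, 5′ to 3′ on the gene's strand, and capitals mark the RBPJ core TGGGAA or its complement on the other strand, including the longer form GTGGGAA, which contains the core. The Lfng window lies at chr5:140607091-140607340 on the plus strand, and the Notch1 window at chr2:26503823-26504072 on the minus strand.

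Lfng: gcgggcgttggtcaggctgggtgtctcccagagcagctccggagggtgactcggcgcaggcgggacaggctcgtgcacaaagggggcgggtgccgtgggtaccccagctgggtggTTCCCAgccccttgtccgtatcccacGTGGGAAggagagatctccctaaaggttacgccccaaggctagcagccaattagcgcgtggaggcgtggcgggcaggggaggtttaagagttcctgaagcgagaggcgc

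Notch1: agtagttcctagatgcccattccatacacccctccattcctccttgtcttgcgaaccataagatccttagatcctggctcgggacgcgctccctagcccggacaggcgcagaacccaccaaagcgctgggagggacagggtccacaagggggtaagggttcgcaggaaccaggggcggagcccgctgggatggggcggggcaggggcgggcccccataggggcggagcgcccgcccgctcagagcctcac

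In the Lfng window the core was found at position -135 from the start on the minus strand and at position -108 on the plus strand, there within the longer form. The Notch1 window had no match, nor had the other 7 windows of Notch2, Notch3, Dll1, Dll4, Jag1 and Jag2, of which Dll1 has 2. Over all 32851 promoter windows of this length, 21.6% held the core and 5.42% the longer form, searched on both strands. The TCF/LEF motif CTTTGA, present in 13.8% of all windows, was in none of the 9. These are matches of letters, and no binding was measured.

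Among the receptors, Notch1, the main receptor of crypt progenitors together with Notch2, had levels of 6.42, 6.33 and 5.90 in K-rasG12D AOM, 7.44 and 6.97 in LSL AOM, and 5.26, 5.36 and 5.35 in serrated tumors. The serrated arrays were the lowest and lay close together, the LSL AOM arrays were the highest, and the groups did not overlap. The mean was 6.22 ± 0.28 (SD, n = 3) in K-rasG12D AOM, 7.20 ± 0.33 (SD, n = 2) in LSL AOM and 5.32 ± 0.05 (SD, n = 3) in serrated tumors. Notch1 fell by 0.90 ± 0.20 (SE, adjusted p = 0.0329) on the log2 scale against K-rasG12D AOM and by 1.88 ± 0.22 (adjusted p = 0.00347) against LSL AOM tumors. The first of these calls was lost without K-rasG12D AOM replicate 1 or 2 or serrated replicate 2 (adjusted p of 0.110 to 0.141), and when array medians were subtracted (0.0655), while the difference itself stayed between -1.06 and -0.80 with any 1 array left out.

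Notch2 gave no such separation. Its levels were 5.75, 6.13 and 5.95 in K-rasG12D AOM, 6.34 and 5.70 in LSL AOM, and 4.79, 5.79 and 5.71 in serrated tumors. Only serrated replicate 1 stood below the AOM arrays, and the other serrated arrays lay among them. The log2 difference from the mean of the AOM groups was -0.55 (95% interval -1.16 to 0.05, adjusted p = 0.237) and came to -0.23 without that array. Serrated replicate 1 also had the smallest spread of signals over genes, with an SD of 1.77 against 2.00 to 2.13 on the other 7 arrays. Its part in the values of Notch2 was not tested beyond leaving the array out.

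For Notch3, a receptor best known from vascular smooth muscle, group means were 4.96 ± 0.21 (SD, n = 3) in K-rasG12D AOM, 4.82 ± 0.01 (SD, n = 2) in LSL AOM and 4.91 ± 0.19 (SD, n = 3) in serrated tumors. The ranges of all groups overlapped. The difference of serrated from the mean of the AOM groups was 0.02 on the log2 scale, with a 95% interval of -0.34 to 0.38.

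Lfng, the fringe glycosyltransferase, had the largest fall of any member. It stood at 5.33, 5.04 and 5.35 in K-rasG12D AOM, at 6.70 and 6.37 in LSL AOM, and at 4.26, 4.50 and 4.52 in serrated tumors. Every LSL AOM array was above every K-rasG12D AOM array, and every serrated array was below both groups. Its mean was 5.24 ± 0.17 (SD, n = 3) in K-rasG12D AOM, 6.54 ± 0.23 (SD, n = 2) in LSL AOM and 4.43 ± 0.15 (SD, n = 3) in serrated tumors. Lfng fell by 2.11 ± 0.20 (adjusted p = 0.00129) against LSL AOM tumors, a 4.31-fold difference, and by 0.81 ± 0.18 (adjusted p = 0.0308) against K-rasG12D AOM tumors, a 1.76-fold difference. The fall against LSL AOM passed with any 1 array left out. That against K-rasG12D AOM did not pass without any 1 of the 3 K-rasG12D AOM arrays or without serrated replicate 2 (adjusted p of 0.0721 to 0.124), nor with array medians subtracted (0.0588). With the 5 AOM arrays pooled as 1 group the difference of -1.33 had an adjusted p of 0.0529, against -1.46 and 0.00133 with the AOM groups kept apart.

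Of the Jagged ligands, Jag2 followed the same order. Its levels were 5.15, 5.19 and 5.18 in K-rasG12D AOM, 5.68 and 5.84 in LSL AOM, and 4.14, 4.17 and 4.66 in serrated tumors. The K-rasG12D AOM arrays were nearly identical, with an SD of 0.02, and lay between the other groups without touching either. Jag2 fell by 0.85 ± 0.18 (adjusted p = 0.0300) against K-rasG12D AOM and by 1.44 ± 0.20 (adjusted p = 0.00710) against LSL AOM tumors. The call against K-rasG12D AOM held only without serrated replicate 1 or 3 among the 8 ways to leave out 1 array (otherwise adjusted p of 0.0542 to 0.123), and was lost with the fit restricted to these groups (0.0542). Against LSL AOM it was lost without either LSL AOM array (0.0534 and 0.0732).

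Jag1, which encodes the other Jagged ligand, had its highest group mean in serrated tumors. It stood at 5.87, 5.92 and 5.95 in K-rasG12D AOM, at 5.55 and 5.40 in LSL AOM, and at 5.72, 6.47 and 6.84 in serrated tumors. Serrated replicates 2 and 3 were above every AOM array, while serrated replicate 1 lay between the AOM groups. With all arrays Jag1 differed by 0.65 (95% interval 0.11 to 1.19, adjusted p = 0.128) from the mean of the AOM groups, by 0.43 (-0.17 to 1.03, 0.389) from K-rasG12D AOM and by 0.87 (0.20 to 1.54, 0.133) from LSL AOM tumors. None of these passed. Without serrated replicate 1 the same differences were 0.96, 0.74 and 1.18 and passed (adjusted p = 0.00662, 0.0328 and 0.00712), and with quantile normalization of the deposited values the first and the last passed as well (0.0263 and 0.0316). With array weights, which gave serrated replicate 1 a weight of 0.242, all of them passed (0.00334, 0.0187 and 0.00623).

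**Figure D2:**
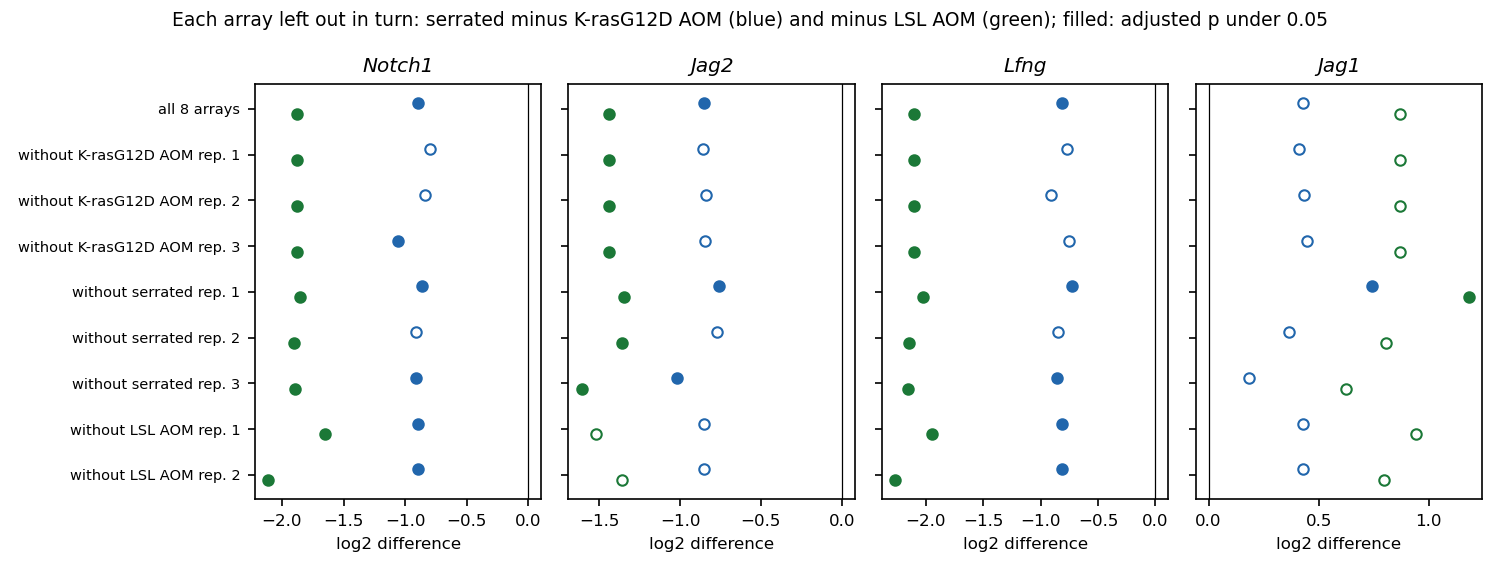
Log2 difference (x axis) of serrated from K-rasG12D AOM (blue) and from LSL AOM tumors (green) for Notch1, Jag2, Lfng and Jag1, with all 8 arrays and with each array left out in turn (y axis); filled points have an adjusted p under 0.05. Notch1, Jag2 and Lfng stay below 0 and Jag1 stays above 0 throughout, but many blue points are open, and the only filled points of Jag1 are those without serrated replicate 1.

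Neither Delta-like ligand passed with all arrays weighted equally. Dll4, which endothelial tip cells and crypt secretory cells are known to express, was at 4.67, 4.85 and 4.23 in K-rasG12D AOM, 5.56 and 5.15 in LSL AOM, and 4.43, 4.22 and 4.92 in serrated tumors. LSL AOM arrays were above all others, and the K-rasG12D AOM and serrated arrays overlapped. Dll4 differed by -0.83 (95% interval -1.45 to -0.20, adjusted p = 0.126) between serrated and LSL AOM tumors and by -0.06 (-0.62 to 0.50, 0.909) between serrated and K-rasG12D AOM tumors. The difference from LSL AOM passed without serrated replicate 3 (-1.03, adjusted p = 0.0357) and with array weights (-1.05, 0.0152), as did that from the mean of the AOM groups with array weights (-0.68, 0.0208). The weighted fits lean on serrated replicate 2, the lowest array for Dll4, with a weight of 3.15 against 0.242 and 0.380 for serrated replicates 1 and 3. The mean level of 14 endothelial markers did not follow the order of Dll4. It was 4.86 and 4.51 on the LSL AOM arrays, 4.78 to 5.04 on the K-rasG12D AOM arrays and 4.50 to 5.11 on the serrated arrays. With all arrays weighted equally 0 of 14 passed in any comparison (limma), as Dll4 did not, with 1 to 3 at an unadjusted p under 0.05. Single markers went both ways, and against LSL AOM tumors 9 had a positive and 5 a negative difference. The part of endothelial cells in the Dll4 values was not tested.

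Dll1, a ligand of early secretory cells in the crypt, ran from 3.60 to 3.89 in K-rasG12D AOM, from 3.81 to 4.26 in LSL AOM and from 4.07 to 4.42 in serrated tumors. Its serrated arrays lay above the K-rasG12D AOM arrays but overlapped the LSL AOM arrays. The difference from K-rasG12D AOM was 0.46 (95% interval 0.03 to 0.89, adjusted p = 0.194). The mean Dll1 and Hey1 signals over all arrays lay below the array medians over genes, which were 4.17 to 4.31.

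Neither target gene passed with all arrays weighted equally. Hes1, the repressor through which Notch holds back secretory fate, had levels of 7.62, 7.37 and 7.02 in K-rasG12D AOM, 7.85 and 6.89 in LSL AOM, and 6.12, 6.96 and 7.05 in serrated tumors. Serrated replicate 1 was the lowest array, while serrated replicates 2 and 3 overlapped the AOM range, and the LSL AOM arrays were themselves the highest and the next to lowest. Hes1 differed by -0.64 (95% interval -1.32 to 0.03, adjusted p = 0.219) from the mean of the AOM groups, and by -0.35 without serrated replicate 1. Hey1, a related repressor known from vessels and stroma, ran from 3.51 to 3.99 in K-rasG12D AOM, from 3.54 to 3.58 in LSL AOM and from 3.15 to 3.68 in serrated tumors. Its difference of -0.31 (95% interval -0.72 to 0.10, adjusted p = 0.325) did not pass either, and the groups overlapped. With array weights Hey1 passed against the mean of the AOM groups (-0.50, adjusted p = 0.0301) and against K-rasG12D AOM (-0.64, 0.0125). Those fits lean on serrated replicate 2, the lowest array for Hey1, with a weight of 3.15 against 0.242 and 0.380 for serrated replicates 1 and 3.

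The AOM groups were also set against each other, which asks how the K-ras label goes with Notch transcripts among chemically induced tumors. Here 0 of 10 members passed in limma, and the same was true of all genes (0% higher and 0% lower), with 4 members and 1666 of the 19938 genes at an unadjusted p under 0.05. Those members were Lfng (-1.29 ± 0.20, unadjusted p = 0.000111, adjusted p = 0.222), Notch1 (-0.98 ± 0.22, 0.00169, adjusted p = 0.269), Jag2 (-0.59 ± 0.20, 0.0183, adjusted p = 0.455) and Dll4 (-0.77 ± 0.28, 0.0210, adjusted p = 0.471), each lower in K-rasG12D AOM. With array weights Lfng passed (adjusted p = 0.0444). In these 4 genes both LSL AOM arrays lay above all K-rasG12D AOM arrays, a separation found in 15.7% of all genes, and in 1, Jag1, both lay below, as in 16.4% of all genes. The full order LSL AOM above K-rasG12D AOM above serrated, with no overlap, held for 3 of 10 members and for 2.09% of all genes.

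**Figure D3:**
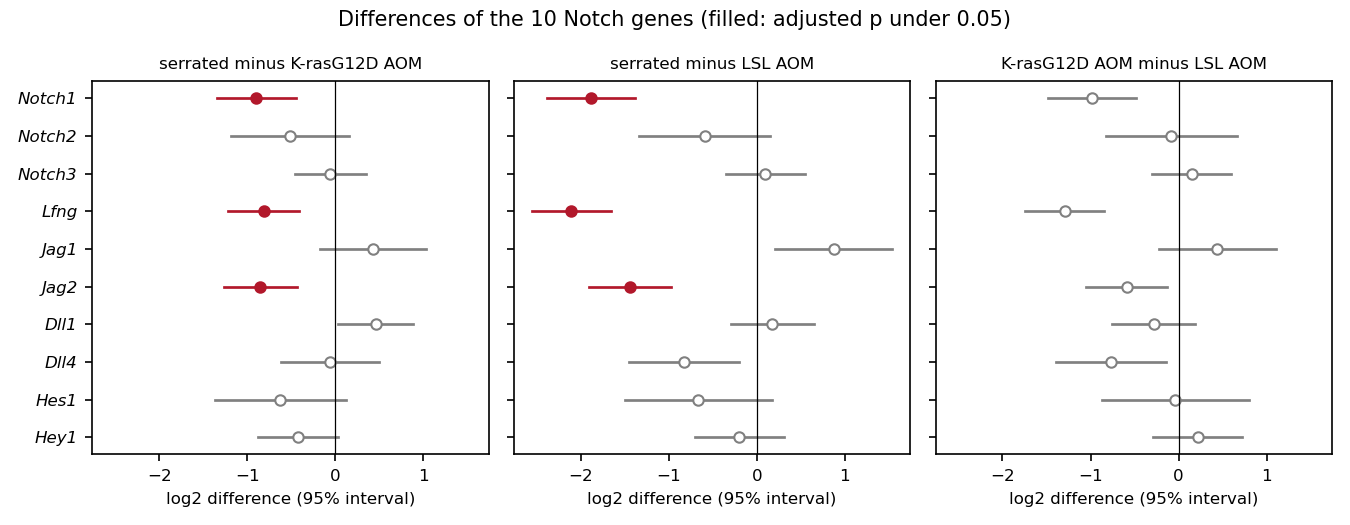
Log2 differences (x axis) with 95% intervals for the 10 Notch genes (y axis) in 3 comparisons; red filled points have an adjusted p under 0.05 over all genes. Notch1, Lfng and Jag2 lie left of 0 in all panels and are filled in both comparisons with serrated tumors, where Jag1 lies to the right.

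Of 50 other genes of the pathway, listed by role, 47 were measured. In each of the comparisons with serrated tumors 1 of them was higher, 2 were lower and 44 did not pass. Their median log2 difference was 0.00 against the mean of the AOM groups, 0.01 against K-rasG12D AOM and -0.04 against LSL AOM tumors. Of the 9 measured cleavage genes, the 7 of the nuclear complex, the 9 negative regulators and the 6 other receptors and ligands, 0 passed (limma), with between 0 and 3 of each list at an unadjusted p under 0.05. Between the AOM groups 0 of 47 passed, and 6 had an unadjusted p under 0.05.

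Hes6, a Hes family member known to counteract Hes1, had the largest fall of these 47 genes. It was at 7.81, 7.28 and 7.13 in K-rasG12D AOM, at 8.93 and 8.91 in LSL AOM, and at 6.13, 5.59 and 5.38 in serrated tumors. It kept the order seen for Notch1, Lfng and Jag2, with no overlap. Of the 47 genes 1 had this order, beside 2.09% of all genes. Hes6 fell by 1.71 ± 0.25 (adjusted p = 0.00619) against K-rasG12D AOM and by 3.22 ± 0.28 (adjusted p = 0.000874) against LSL AOM tumors, and both calls held with any 1 array left out.

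Genes acting on receptor glycosylation and ligand uptake went both ways. Poglut1, which adds glucose to the receptor's EGF repeats, was at 6.02 to 6.29 on the 5 AOM arrays and at 4.83, 4.70 and 5.55 in serrated tumors. It fell by 1.16 ± 0.23 (adjusted p = 0.0244) against K-rasG12D AOM and by 1.17 ± 0.26 (adjusted p = 0.0365) against LSL AOM tumors, but these calls held in 4 and in 1 of the 8 fits without 1 array (otherwise adjusted p of 0.0502 to 0.224). Neurl1b, a ubiquitin ligase of the Neuralized family that acts on Notch ligands, was at 4.29 to 5.13 on the AOM arrays and at 7.16, 6.60 and 6.65 in serrated tumors. The serrated arrays were all above the AOM arrays. Neurl1b rose by 2.11 ± 0.25 (adjusted p = 0.00294) and by 1.81 ± 0.28 (adjusted p = 0.00986), and its other probe set was also higher, at 5.20 to 5.53 against 3.59 to 4.44. The second call was lost without either LSL AOM array (0.0700 and 0.0922).

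**Figure D4:**
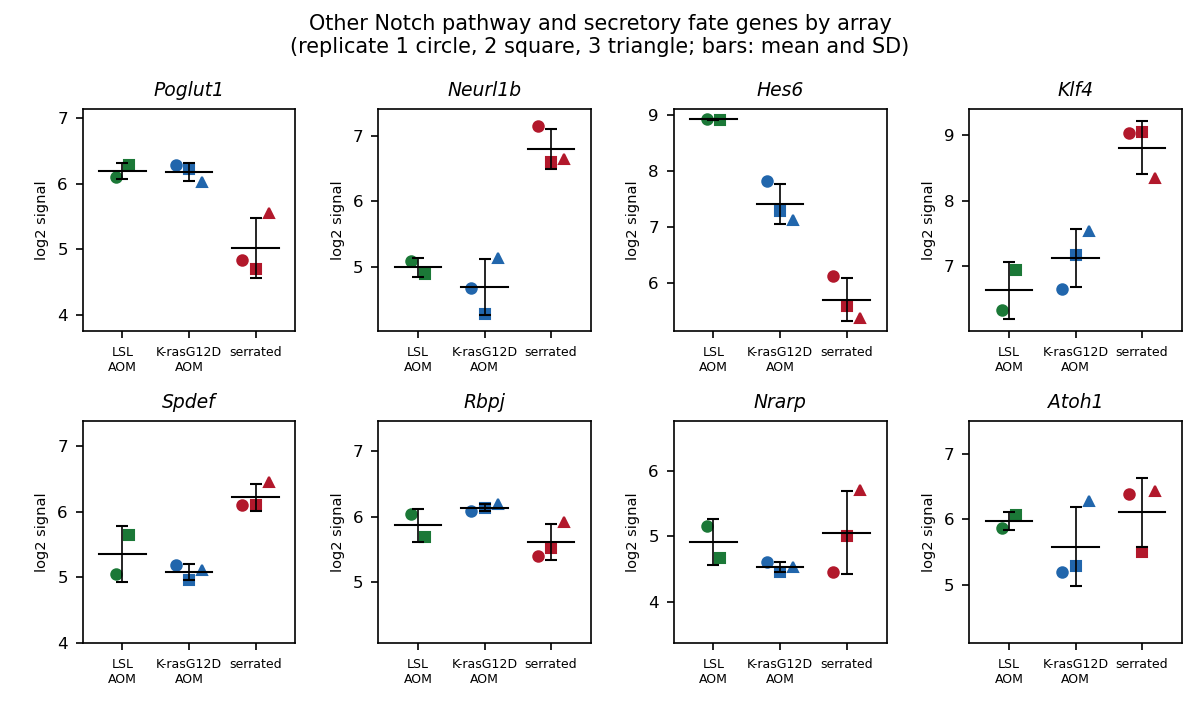
Log2 signal (y axis) by tumor group (x axis) of Poglut1, Neurl1b and Hes6, which passed, of Klf4 and Spdef from the secretory fate list, and of Rbpj, Nrarp and Atoh1, shown as the nuclear partner, a feedback target and the secretory switch; symbols are arrays, bars are mean and SD. Hes6 steps down in 3 levels, Neurl1b and Klf4 are higher on every serrated array, and serrated arrays of Rbpj, Nrarp and Atoh1 overlap those of at least 1 AOM group.

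Genes chosen after their values were seen were Rbpj, the DNA-binding partner of all Notch receptors, Nrarp, a feedback target, and Atoh1, the switch to secretory fate. Rbpj differed by -0.52 (adjusted p = 0.148) between serrated and K-rasG12D AOM tumors and by -0.25 (adjusted p = 0.552) between serrated and LSL AOM tumors. Nrarp differed by 0.33 ± 0.27 (adjusted p = 0.482) and Atoh1 by 0.33 ± 0.31 (adjusted p = 0.539) from the mean of the AOM groups. None of these passed. The serrated arrays of Nrarp and Atoh1 overlapped both AOM groups, and those of Rbpj, at 5.40, 5.51 and 5.92, overlapped LSL AOM (6.04 and 5.69) but not K-rasG12D AOM (6.09 to 6.19).

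Of 14 secretory fate genes, 2 were higher in serrated tumors than in the mean of the AOM groups, 0 were lower and 12 did not pass. Klf4, a transcription factor of differentiated colon epithelium and goblet cells, rose by 1.93 ± 0.27 (adjusted p = 0.00398), with 8.34 to 9.04 in serrated and 6.32 to 7.54 in AOM tumors. Spdef, a goblet cell transcription factor, rose by 1.01 ± 0.18 (adjusted p = 0.0126), from 4.95 to 5.65 on the AOM arrays to 6.10 to 6.46 in serrated tumors. Against K-rasG12D AOM alone both rose, but neither call held without K-rasG12D AOM replicate 1 or 2 or serrated replicate 2 (adjusted p of 0.0530 to 0.0654 for Klf4 and of 0.0519 to 0.0766 for Spdef). There Tff3, a goblet cell peptide, rose as well (2.22 ± 0.55, adjusted p = 0.0497), and this call was lost in 6 of 8 fits without 1 array (adjusted p of 0.0829 to 0.155). Against LSL AOM alone only Klf4 passed (2.17 ± 0.33, adjusted p = 0.00956), not without LSL AOM replicate 1 (0.0976). The list's median was 0.31 for serrated against all AOM tumors.

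Other marker lists moved with the fall of Notch1, Jag2 and Lfng. In bulk tumor RNA, fewer cells of a type and less RNA per cell cannot be told apart. Of 9 crypt progenitor genes, 7 were lower and 1 was higher in serrated than in AOM tumors, among them Lgr5, the stem cell marker (-3.10 ± 0.46, adjusted p = 0.00534), Axin2, a Wnt target (-3.80 ± 0.23, 0.000102), and Ascl2, a stem cell transcription factor (-2.35 ± 0.19, 0.000446). The gene that rose was Olfm4, a marker of crypt base cells (4.29 ± 0.90, adjusted p = 0.0219), at 4.03, 8.21 and 8.52 in serrated tumors and at 2.24 to 3.10 on the AOM arrays. Its difference was 5.73 without serrated replicate 1. The call was lost without K-rasG12D AOM replicate 2, serrated replicate 2 or either LSL AOM array (adjusted p of 0.0537 to 0.0998), and Olfm4 did not pass against LSL AOM alone (0.0590). The list had a mean level of 4.78 to 5.73 in serrated, 6.83 to 7.15 in K-rasG12D AOM and 6.79 to 7.21 in LSL AOM tumors. Of 10 macrophage markers 6 were lower, such as Lyz2 (-2.67 ± 0.45, adjusted p = 0.00908), and 0 higher, with a mean level of 4.73 to 5.53 in serrated, 5.86 to 6.48 in K-rasG12D AOM and 5.82 to 6.44 in LSL AOM tumors. Of 10 fibroblast markers 3 collagen genes were lower, such as Col1a1 (-1.47 ± 0.29, adjusted p = 0.0161, and 0.0793 without serrated replicate 2), and 0 were higher, with a mean of 5.43 to 6.39 in serrated, 6.36 to 6.85 in K-rasG12D AOM and 6.11 to 6.99 in LSL AOM tumors. None of these lists had a gene that passed between the AOM groups (limma), where 2 progenitor genes, 0 macrophage and 0 fibroblast markers had an unadjusted p under 0.05. The part of these lists in the Notch values was not tested.

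All 10 colon epithelium markers were measured, and their mean level was 8.91 to 9.03 in K-rasG12D AOM, 9.03 to 9.13 in LSL AOM and 9.68 to 9.72 in serrated tumors. Epcam and Cdh1, which define epithelium, ran from 10.1 to 10.5 and from 9.86 to 10.4 over all 8 arrays. These 2 do not stand for the list, in which 9 of 10 markers had a positive difference from the mean of the AOM groups. The list's median log2 difference was 0.25. Of these 10 markers 2 were higher, the differentiation keratin Krt20 (2.53 ± 0.49, adjusted p = 0.0162, but 0.0792 without serrated replicate 2 and 0.0637 without LSL AOM replicate 1) and the intestinal transcription factor Cdx2 (2.56 ± 0.27, 0.00130), and 0 were lower in serrated than in AOM tumors. Of 12 mural and smooth muscle markers 0 passed (limma), with 2 at an unadjusted p under 0.05 and a mean of 4.95 to 5.87 over all arrays. Of 8 lymphocyte markers measured 0 passed against the mean of the AOM groups, with 1 at an unadjusted p under 0.05, and 1 was higher against LSL AOM tumors. Their mean was 2.96 to 3.76 on the AOM and 3.38 to 3.83 on the serrated arrays.

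For the members that passed, the genes with the most similar pattern over the 8 arrays were sought among all genes, by the root mean square difference of mean-centred log2 levels. Nearest to Notch1 were Hsd3b7 (0.14), Tcf3 (0.21) and Cyp27a1 (0.22), where the Notch1 pattern itself had a root mean square of 0.75 about its mean. Nearest to Lfng were again Hsd3b7 (0.22), B3galt2 (0.23) and Pcyox1l (0.23), and nearest to Jag2 were Mcrip1 (0.09), Nisch (0.10) and Mpv17 (0.13). Hsd3b7 stood at 5.84 to 6.08 in K-rasG12D AOM, 6.73 and 6.95 in LSL AOM, and 4.93 to 5.12 in serrated tumors, the same order as the Notch genes. The arrays of a group share their tumor type and genotype, so the 8 arrays are not independent points.

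Cdkn2a, the product of the Ink4a/Arf locus, stood at 5.39, 6.21 and 5.95 in K-rasG12D AOM, 3.59 and 4.28 in LSL AOM, and 4.01, 3.79 and 3.37 in serrated tumors. The LSL AOM and serrated arrays overlapped. The position of its probe set relative to the deletion is unknown, so these levels are no check of the genotype labels.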

How the data were processed

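Total RNA of 8 colonic tumors had been hybridised to Affymetrix arrays, 1 array a sample. The deposited values are log2 signals made with GCOS and RMA, per the submitters' processing notes. The sources used here give no versions or settings. Of 35557 probe sets, 21789 had exactly 1 gene symbol in the probe annotation, which gave 19938 genes. A gene with several probe sets was represented by the brightest, by its mean over the 8 arrays.

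Group means were fitted with limma 3.58.1 in R 4.3.3 to all 8 arrays, sharing 1 spread per gene with 5 residual degrees of freedom before moderation. P-values were adjusted by Benjamini-Hochberg over all 19938 genes, and an adjusted p under 0.05 passed. All p-values in the text come from limma. Errors beside differences are standard errors, beside levels SD. The number of arrays limits the precision. The labels do not say whether samples came from separate animals, so the p-values reflect only sample-to-sample spread, which could be technical.

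The fit was tested on simulated data with known changes.

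The members, lists and comparisons were chosen with earlier results of these data known. Named were all members, genes of the lists that passed (at most 6 a list by p), the 3 nearest genes in pattern for members that passed, Cdkn2a, and the defining epithelial markers. Rbpj, Nrarp and Atoh1 were added after their values were seen. Alternatives were moderation with trend and robust options, array weights, a filter on the dimmest 40% of genes, quantile normalization, median centring, the mean of probe sets, fits restricted to the groups compared, pooled AOM arrays, and leaving out each array.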

Additional observations from a re-analysis of the deposited data

How the results depend on the processing

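The number of members that passed against the mean of the AOM groups, 3, was 3 to 4 with 1 array left out and 6 with array weights. Against K-rasG12D AOM it was 0 to 4 with 1 array left out (0 without K-rasG12D AOM replicate 1 or 2 or serrated replicate 2, and 1 without K-rasG12D AOM replicate 3), 5 with array weights and 1 with array medians subtracted. Against LSL AOM it was 2 to 4 with 1 array left out and 5 with array weights, and between the AOM groups 1 with array weights. The other pathway genes that passed, 3 in each serrated comparison, numbered 2 to 5, 2 to 6 and 1 to 4 with 1 array left out. They numbered 10, 11 and 7 with array weights, which gave serrated replicates 1 and 3 weights of 0.242 and 0.380 against 3.15 for replicate 2. They numbered 6 against the mean of the AOM groups and 5 against K-rasG12D AOM with quantile normalization, and 5 against the mean without the dimmest 40% of genes. Without serrated replicate 3 they numbered 5 against the mean and 6 against K-rasG12D AOM, and without either LSL AOM array 1 against LSL AOM. The cause was not tested, except that a fit leaving 1 LSL AOM array assumes it to vary like the other groups.

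Notch1, Jag2 and Lfng were lower in serrated tumors under every alternative run. Signs turned only for differences that did not pass. With 1 array left out Notch3 ran from -0.070 to 0.12 against the mean of the AOM groups and from -0.14 to 0.064 against K-rasG12D AOM, where array weights gave 0.13, quantile normalization 0.043 and median centring 0.037. Dll4 against K-rasG12D AOM ran from -0.26 to 0.10, and median centring gave 0.032. Dll1 against LSL AOM ran from -0.052 to 0.40 and Tff3 from -0.23 to 0.30. Between the AOM groups Notch2 ran from -0.40 to 0.24, Hes1 from -0.52 to 0.44 with 0.043 under array weights, Poglut1 from -0.10 to 0.073 with 0.019 under array weights, and Spdef from -0.57 to 0.035. No paired analysis was possible because the labels carry no replicate numbers shared between groups.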
